A study of Mus musculus with 12 samples.

Results

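Guanylate-binding proteins (GBPs) are large GTPases that T cells and most other cells make in response to interferon. Their transcripts were measured in sorted regulatory T cells (Tregs), and the members are the 9 genes named Gbp1 to Gbp9, selected by symbol from the 26609 genes of the count table. All 9 were among the 13692 genes with enough counts to be tested. The contrast of Gbp1 with the other members was chosen with the difference between knockout and wild type already known, so values of the members in that comparison are given as a description, with no test. The libraries fall into 4 titled groups of 3. KO female and KO male are SAMP/YitFC-ERb-KO mice, which lack estrogen receptor beta (ERb, gene Esr2) in the whole body, and WT female and WT male are SAMP/YitFC-WT mice. SAMP/YitFC is an inbred line that develops ileitis spontaneously, a background that all 4 groups share. The mice were untreated, the sources used here do not give their age, and the cells were CD4+CD25hiCD127lo singlets from mesenteric lymph nodes. The design addresses how Tregs differ with the receptor and with sex.

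GBPs belong to the dynamin superfamily. Interferon-gamma is their best known inducer, and type I interferon acts on many of them too. The proteins gather on vacuoles that hold parasites or bacteria and on bacteria in the cytosol, help to break these compartments open, and feed the inflammasomes that activate caspase-1 and caspase-11. In the mouse the genes lie in 2 clusters. Per RefSeq (GRCm38.p6), the chromosome 3 cluster on the plus strand holds Gbp5 (142496934 to 142522344), Gbp7 (142530336 to 142550151), Gbp3 (142560016 to 142573213), Gbp1 (142594816 to 142619179) and Gbp2 (142620663 to 142638008). The gene that the files call Gbp1 is named Gbp2b in RefSeq and was matched by synonym. The chromosome 5 cluster on the minus strand holds Gbp8 (105012513 to 105053609), Gbp9 (105076464 to 105110357), Gbp4 (105115767 to 105139586) and Gbp6 (105270702 to 105295871). Gbp10 and the transcribed pseudogene Gbp11 lie in the same cluster.

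The promoters of the chromosome 3 members are shown because Gbp1 and its neighbours lie side by side, while the distance between KO and WT levels was not the same among them. RefSeq promoter entries (GRCm38.p6, plus strand) were used for 5 members, and the 250 bases before the transcript start are printed. They are chr3:142594597-142594846 for Gbp1, chr3:142620413-142620662 for Gbp2, chr3:142559794-142560043 for Gbp3, chr3:142530086-142530335 for Gbp7 and chr3:142496684-142496933 for Gbp5. Capitals mark matches to an interferon-stimulated response element (ISRE, GAAA and GAAA parted by any 2 bases, read on this strand as TTTC and TTTC parted by 2 bases) and to a gamma-activated site (GAS, TTCNNNGAA).
Gbp1: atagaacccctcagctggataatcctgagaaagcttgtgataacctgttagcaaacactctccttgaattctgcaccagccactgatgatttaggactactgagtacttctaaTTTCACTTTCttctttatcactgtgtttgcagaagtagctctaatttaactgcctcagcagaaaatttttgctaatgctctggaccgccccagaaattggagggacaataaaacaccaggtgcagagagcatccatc
Gbp2: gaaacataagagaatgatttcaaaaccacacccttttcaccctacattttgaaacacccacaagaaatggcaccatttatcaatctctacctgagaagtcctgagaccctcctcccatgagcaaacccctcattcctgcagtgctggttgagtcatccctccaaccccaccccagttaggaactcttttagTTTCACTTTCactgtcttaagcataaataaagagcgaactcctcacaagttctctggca
Gbp3: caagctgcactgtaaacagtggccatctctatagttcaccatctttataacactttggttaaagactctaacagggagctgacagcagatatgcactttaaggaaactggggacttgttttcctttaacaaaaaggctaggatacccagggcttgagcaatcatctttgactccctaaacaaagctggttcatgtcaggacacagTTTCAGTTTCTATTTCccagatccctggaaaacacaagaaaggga
Gbp7: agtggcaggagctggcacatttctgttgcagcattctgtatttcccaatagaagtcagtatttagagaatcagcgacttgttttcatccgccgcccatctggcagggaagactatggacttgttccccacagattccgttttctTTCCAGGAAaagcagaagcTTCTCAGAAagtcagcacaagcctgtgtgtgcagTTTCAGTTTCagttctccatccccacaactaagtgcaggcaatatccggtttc
Gbp5: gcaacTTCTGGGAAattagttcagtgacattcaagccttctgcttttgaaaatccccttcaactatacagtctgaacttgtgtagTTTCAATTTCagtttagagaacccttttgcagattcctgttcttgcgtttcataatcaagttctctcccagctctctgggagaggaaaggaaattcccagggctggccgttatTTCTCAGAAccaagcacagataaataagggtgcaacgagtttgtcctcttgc

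Each of the 5 windows held an ISRE match. Distances are counted from the transcript start of each promoter entry. For Gbp1 and Gbp3 the windows end at 142594846 and 142560043, past the gene starts given above, 142594816 and 142560016. Counted from the gene start, the distances in both genes would be shorter. In Gbp1 and Gbp2 the match had the same letters, TTTCACTTTC, but began 137 bases before the entry's start in Gbp1 and 59 bases before it in Gbp2. Gbp3 held 2 matches that share their middle letters, at 45 and 39 bases, and its second RefSeq entry held none. Gbp7 held 1 match at 53 bases and Gbp5 1 match at 165 bases. GAS matches were in Gbp7 (106 and 87 bases) and Gbp5 (245 and 52 bases), and in none of the windows of Gbp1, Gbp2 and Gbp3. Both strands were searched, and no ISRE match overlapped a GAS match. Of 32851 RefSeq promoter windows of this length, 2.98% held an ISRE match, 7.02% a GAS match and 0.332% both. The estrogen response element (GGTCA and TGACC parted by any 3 bases) was in 0.0639% of them and in none of the windows of these 5 members. This says only that these letters are not there. The members on chromosome 5 had no promoter entry and were not searched. A match is a description of letters, not a site of binding.

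Total counts were 10.2 to 14.8 M in KO and 13.4 to 16.7 M in WT libraries, and the members had between 799 and 14642 counts in a library, so counting error was small beside the spread between libraries. Foxp3, the lineage factor of Tregs, was at 583 to 930 counts scaled to library size (CPM) in KO and 638 to 924 CPM in WT libraries. Il2ra (CD25) was at 535 to 977 CPM in KO libraries and 522 to 1008 CPM in WT libraries, and Il7r (CD127), which is low on the sorted cells, at 145 to 195 CPM in KO libraries and 146 to 253 CPM in WT libraries. Esr2 did not follow the titles: it was at 0.146 to 11.5 CPM in KO libraries and 0 to 12.3 CPM in WT libraries, and under 1 CPM in 2 KO and 4 WT libraries. The sources used here do not give the deleted part of Esr2. In 4 libraries the sex-linked transcripts were opposite to the titled sex (KO female 1, KO male 1, KO male 2 and WT female 2), so "KO", "WT", "female" and "male" mean the titles throughout, and results are also given without these 4. That fit keeps KO male 3 as the only KO male library, so its values lean on this library. The labels do not say whether libraries came from separate mice, and WT male 2 and WT male 3 carry the same number in their titles. The p-values therefore measure the spread between these samples, which may be technical.

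All 9 members were well expressed in these Tregs, and most of them at levels close to those of their neighbours in rank. Levels are compared between genes as CPM per kilobase of exon, with lengths from GENCODE M21. Over all 12 libraries Gbp1 was highest at 183 ± 52.6 CPM per kilobase (SD, n = 12), followed by Gbp4 at 149 ± 41.7, Gbp2 at 139 ± 29.0, Gbp7 at 123 ± 31.5 and Gbp3 at 123 ± 22.4. Gbp6 followed at 95.2 ± 22.0, Gbp9 at 74.8 ± 14.2, Gbp8 at 72.3 ± 14.8 and Gbp5, lowest, at 42.2 ± 9.90 CPM per kilobase. Gbp6 exceeded Gbp9 in 12 of 12 libraries, Gbp8 exceeded Gbp5 in 12 of 12, and Gbp3 exceeded Gbp6 in 11 of 12. The other neighbours in this order changed places in 3 or more libraries: Gbp4 exceeded Gbp2 in 7, Gbp9 exceeded Gbp8 in 7 and Gbp7 exceeded Gbp3 in 5 of 12.

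**Figure D1:**
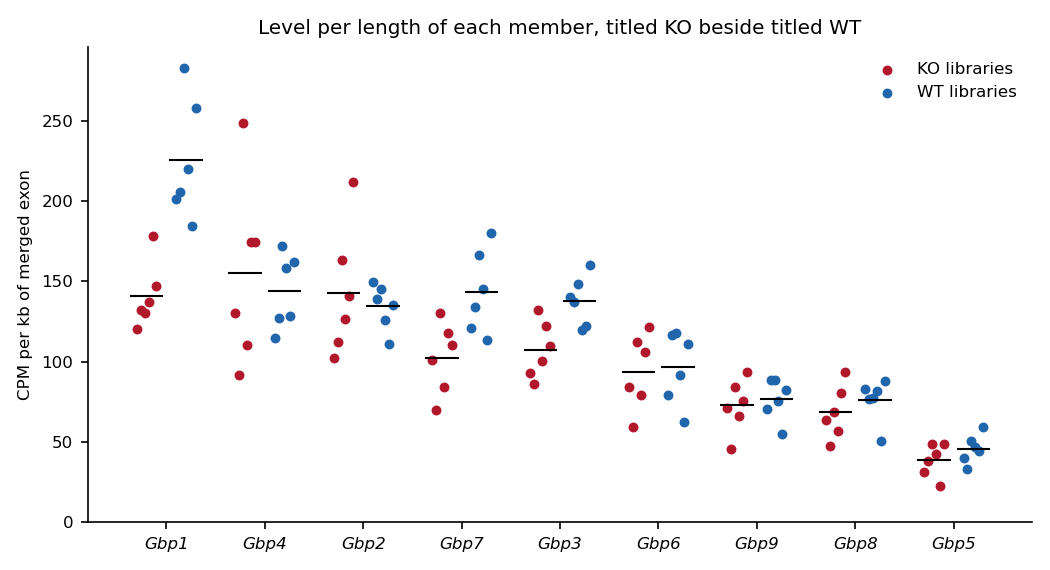
Level of each member in CPM per kilobase of exon, 1 point per library, with KO libraries left of WT libraries and a bar at the group mean. Gbp1 averaged 141 in KO and 225 in WT libraries, while Gbp5 lay lowest in both.

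Gbp1 shared the top place with other members in KO libraries and held it alone in WT libraries. In KO libraries Gbp4 averaged 155 ± 56.8, Gbp2 143 ± 40.1 and Gbp1 141 ± 20.1 CPM per kilobase (SD, n = 6), which lay within the spread of each other. In WT libraries Gbp1 averaged 225 ± 37.5, against 144 ± 23.1 for Gbp4, 143 ± 25.9 for Gbp7, 138 ± 15.3 for Gbp3 and 135 ± 14.1 for Gbp2. Gbp1 was the highest member per kilobase in 3 of 6 KO libraries and in 6 of 6 WT libraries. Among the other KO libraries Gbp4 was highest in 2 and Gbp2 in 1.

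Gbp1, which in mice acts against the parasite Toxoplasma at its vacuole, was lower in every KO library than in any WT library. It was at 387, 503 and 415 CPM in KO female 1 to 3 and at 340.5, 373 and 369 CPM in KO male 1 to 3, against 621, 521 and 729 CPM in WT female 1 to 3 and 568, 581 and 799 CPM in WT male 1 to 3. The groups did not overlap, although the highest KO library (503 CPM, KO female 2) and the lowest WT library (521 CPM, WT female 2) were close. The means were 398 ± 56.8 CPM in KO libraries and 636 ± 106 CPM in WT libraries (SD, n = 6), a log2 fold change of -0.68 (SE 0.12) from edgeR. It was -0.52 (SE 0.18) in females and -0.85 (SE 0.18) in males. Over all genes tested, 1.43% had every KO library below every WT library. Without the 4 libraries of opposite sex-linked transcripts the log2 fold change of Gbp1 was -0.70.

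**Figure D2:**
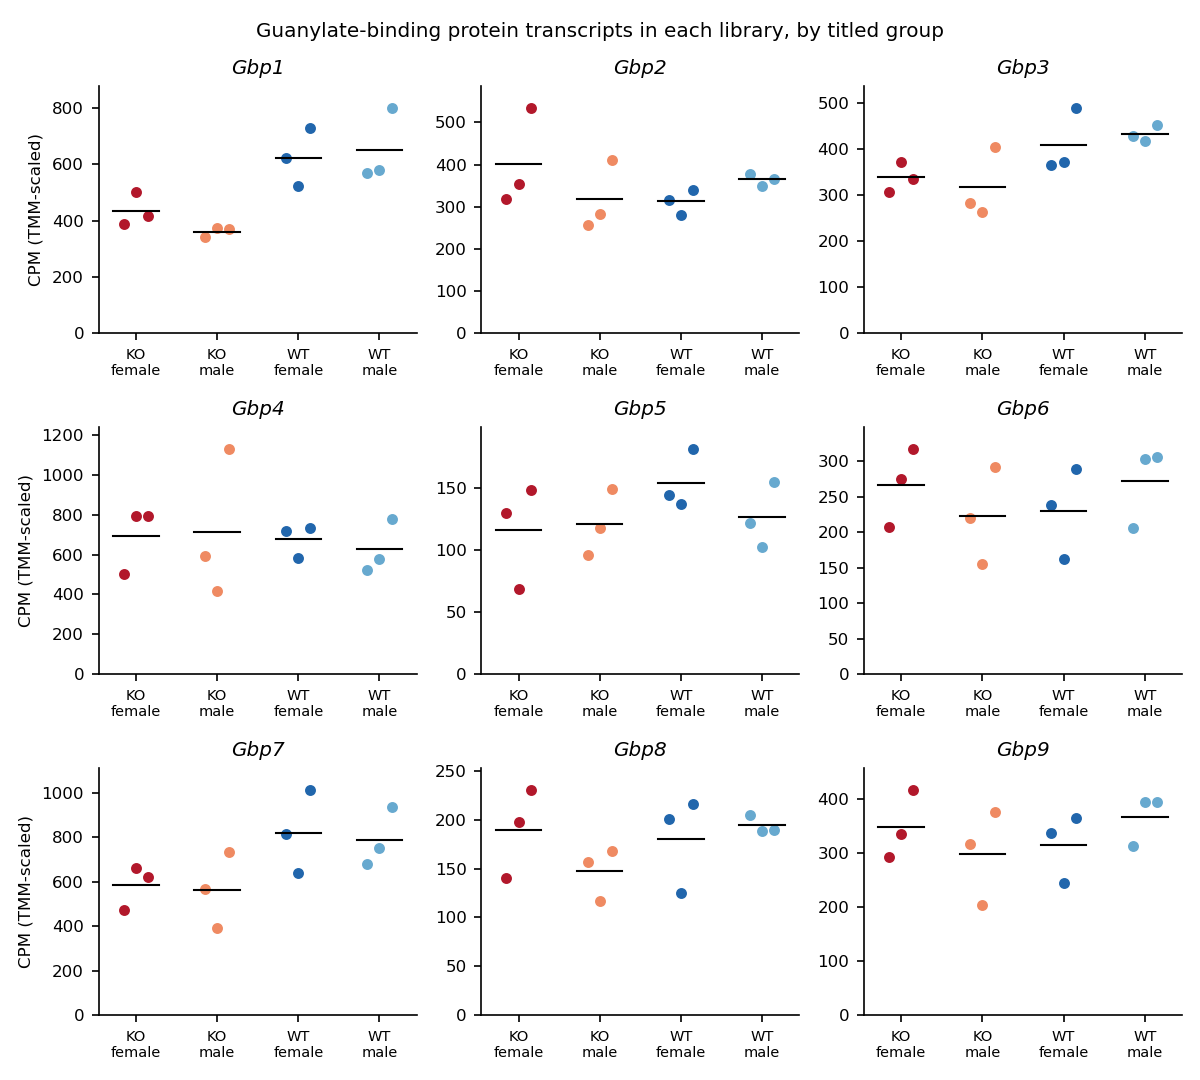
CPM of each member in the 12 libraries, with KO female, KO male, WT female and WT male from left to right and a bar at each group mean. Gbp1 is the only member whose KO libraries (340.5 to 503 CPM) all lie below its WT libraries (521 to 799 CPM).

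The other members of the chromosome 3 cluster did not share this separation. Gbp7, which has been linked to the killing of mycobacteria in mouse macrophages, was at 472, 661 and 621 CPM in KO female 1 to 3 and 568, 392 and 732 CPM in KO male 1 to 3, against 815, 637 and 1010.1 CPM in WT female 1 to 3 and 679, 753 and 936 CPM in WT male 1 to 3. Of its KO libraries 4 lay below every WT library, and the log2 fold change was -0.49 (SE 0.16), or -0.33 without the 4 libraries. Gbp3, whose coding sequence is the most like that of Gbp7 at 78.6% identity, averaged 328 ± 53.7 CPM in KO libraries and 421 ± 46.8 CPM in WT libraries (SD, n = 6), with a log2 fold change of -0.36 (SE 0.13) and again 4 KO libraries below the WT range. Without the 4 libraries it was -0.20. Gbp5, which in mice promotes NLRP3 inflammasome assembly, averaged 118 ± 31.5 CPM in KO libraries and 139.99 ± 27.0 CPM in WT libraries, with a log2 fold change of -0.24 (SE 0.18) and overlapping groups.

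Gbp2 lies directly beside Gbp1 and shares 82.5% of its coding bases, yet its level did not follow that of Gbp1. Gbp2 is a GTPase that coats bacteria and parasite vacuoles in mouse cells. It was at 318, 354 and 533 CPM in KO female 1 to 3 and 257, 283 and 412 CPM in KO male 1 to 3, against 317, 279.96 and 341 CPM in WT female 1 to 3 and 377, 350.2 and 366 CPM in WT male 1 to 3. The KO libraries spread over both sides of the WT range, with 2 above it and 1 below it. The log2 fold change was 0.08 (SE 0.15). It was 0.29 without the 4 libraries, a fit in which KO male 3, at 412 CPM, was the only KO male library. Of the 50-base stretches in the Gbp1 transcripts, 1.84% also occurred in another GBP gene, so few reads could have been shared between them.

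The 4 members on chromosome 5 had fold changes near 0 and wide, overlapping groups. Gbp4 was at 501, 791 and 792 CPM in KO female 1 to 3 and 591, 416 and 1127.5 CPM in KO male 1 to 3, against 718, 583 and 736 CPM in WT female 1 to 3 and 522, 576 and 779.9 CPM in WT male 1 to 3. KO libraries held both the highest and the lowest Gbp4 levels, KO male 3 and KO male 2. Its log2 fold change of 0.11 (SE 0.21) became -0.14 without KO male 3. It became 0.47 without the 4 libraries, where KO male 3 is the only KO male library. Gbp6 averaged 244 ± 61.0 CPM in KO libraries and 251 ± 58.8 CPM in WT libraries, Gbp8 168 ± 40.6 CPM in KO libraries and 187 ± 32.4 CPM in WT libraries, and Gbp9 323 ± 73.0 CPM in KO libraries and 341 ± 57.3 CPM in WT libraries (SD, n = 6). Their log2 fold changes were -0.04, -0.16 and -0.08, with SE 0.18, 0.16 and 0.16. Of the 50-base stretches in Gbp6, 70.1% also occurred in another GBP gene, 62.3% in Gbp10, and the 2 coding sequences were 98.4% identical. The sources used here do not give how reads with several matches were counted, so the split of reads between Gbp6 and Gbp10 is uncertain, and 21.2% of Gbp8 and 12.1% of Gbp4 stretches were shared too.

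**Figure D3:**
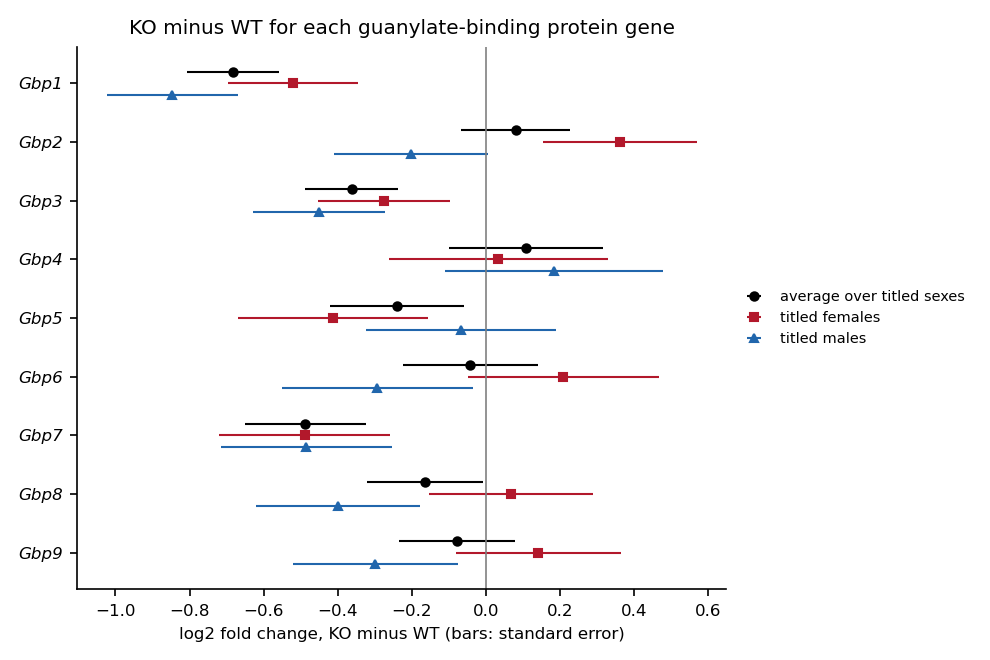
Log2 fold change of KO over WT for the 9 members, for the average of the sexes, for females and for males, with bars of 1 SE from edgeR. The averages run from -0.68 for Gbp1 to 0.11 for Gbp4, and 7 of 9 lie below 0.

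Across the family the averaged log2 fold changes ran from -0.68 to 0.11 with a median of -0.16, beside a median of 0.02 over all genes tested, and 7 of 9 were below 0, as were 47.8% of all genes. Among all genes 206 passed an adjusted p of 0.05 with edgeR's quasi-likelihood test and Benjamini-Hochberg adjustment, which is 1.5% of those tested, with 0.606% higher and 0.898% lower. The summed level of the 9 members was 2320 to 4030 CPM in KO libraries and 3063 to 4378 CPM in WT libraries, and these ranges overlapped. Gbp1 made up 9.15% to 16.1% of that sum in KO and 15.8% to 18.2% in WT libraries. In bulk samples fewer expressing cells and less RNA per cell cannot be told apart.

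Ratios of members within a library do not depend on library size, and 1 of the 8 ratios with Gbp1 did not overlap between KO and WT libraries. The log2 ratio of Gbp1 to Gbp2 CPM was 0.18 ± 0.35 in KO and 0.90 ± 0.21 in WT libraries (SD, n = 6), with ranges of -0.36 to 0.51 in KO and 0.59 to 1.12 in WT that did not overlap. The ratio of Gbp4 to Gbp7 was 0.24 ± 0.22 in KO and -0.30 ± 0.13 in WT libraries, also without overlap. Without scaling to gene length, Gbp4 was the member with the highest CPM in 6 of 6 KO libraries and Gbp7 in 6 of 6 WT libraries. Per kilobase, Gbp4 was highest in 2 of 6 KO libraries and Gbp7 in 0 of 6 WT libraries. The ratio of Gbp2 to Gbp3 was 0.10 ± 0.29 in KO and -0.32 ± 0.13 in WT libraries. These were the 3 of 36 member pairs whose ratios did not overlap, beside 3.85% of all pairs of genes with at least 100 CPM.

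**Figure D4:**
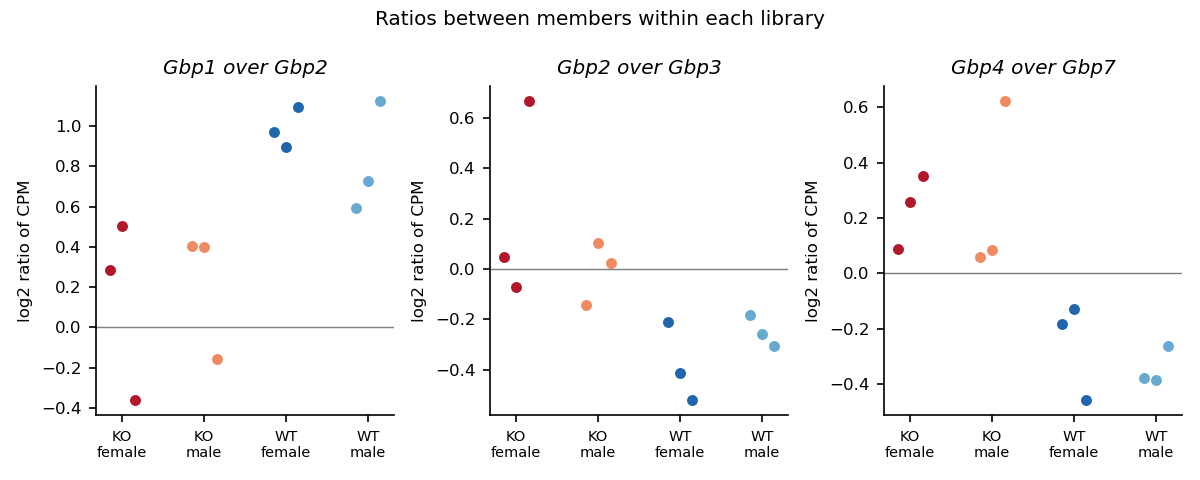
Log2 ratio of CPM within each library for the 3 member pairs whose KO libraries (left) and WT libraries (right) do not overlap, 1 point per library. Gbp1 over Gbp2 lies at -0.36 to 0.51 in KO and 0.59 to 1.12 in WT libraries.

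Sex was not used to choose the members, and no difference between the titled sexes was detected in any of them. With edgeR, 0 of 9 members passed for female minus male averaged over the genotypes, and 0 had an unadjusted p below 0.05. Over all genes tested 0 passed (0%), and 966 (7.06%) had an unadjusted p below 0.05. The members' log2 fold changes were 0.00 to 0.13, the largest being 0.13 (SE 0.16, adjusted p = 0.821, edgeR) for Gbp8, and the lowest adjusted p was 0.811, for Gbp1 with 0.11 (SE 0.12). Because 4 libraries had opposite sex-linked transcripts, this compares titles. Without them the log2 fold change of Gbp1 was 0.20 (adjusted p = 0.635, edgeR), and no member passed under DESeq2, limma or any of the other alternatives.

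Whether the KO difference itself differed between females and males was tested as an interaction, and again no member passed. Interaction values on the log2 scale ran from -0.34 for Gbp5 to 0.56 (SE 0.29) for Gbp2, with 0 of 9 passing in edgeR, a lowest adjusted p of 0.900 and 0 below 0.05 unadjusted. Over all genes tested 0 passed (0%), and 659 (4.81%) had an unadjusted p below 0.05. For Gbp2 the KO difference was 0.36 (SE 0.21) in females and -0.20 (SE 0.21) in males. For Gbp7 it was -0.49 (SE 0.23) in females and -0.48 (SE 0.23) in males, and for Gbp1 the interaction was 0.33 (SE 0.25). An adjusted p above the threshold does not show that the differences were equal.

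Members of 1 cluster did not all vary together across the 12 libraries. Correlations are Pearson's r of log2 CPM, over libraries that share group and depth differences, and r of deviations from the 4 group means is given beside each. Among the 4 chromosome 5 members r was 0.55 to 0.97 with a median of 0.78 (deviations 0.66 to 0.96, median 0.83). Gbp6 and Gbp9 were the most alike at 0.97 (deviations 0.96), in the cluster where coding sequences were 89.7% to 92.9% identical among Gbp4, Gbp6, Gbp8 and Gbp9. Among the 5 chromosome 3 members r was 0.11 to 0.90 with a median of 0.37 (deviations 0.10 to 0.84, median 0.54). Gbp3 and Gbp7 reached 0.90 (deviations 0.84), whereas Gbp1 and Gbp2 had 0.11 (deviations 0.19). Gbp1 was at 0.81 with Gbp3 and with Gbp7, which became 0.51 and 0.64 for deviations. Gbp5 was at 0.12 to 0.39 with the other members (deviations 0.10 to 0.60, the highest with Gbp2). Across the clusters Gbp7 was at 0.68 with Gbp6 (deviations 0.93), 0.63 with Gbp4 (deviations 0.92), 0.71 with Gbp9 (deviations 0.90) and 0.70 with Gbp8 (deviations 0.79).

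**Figure D5:**
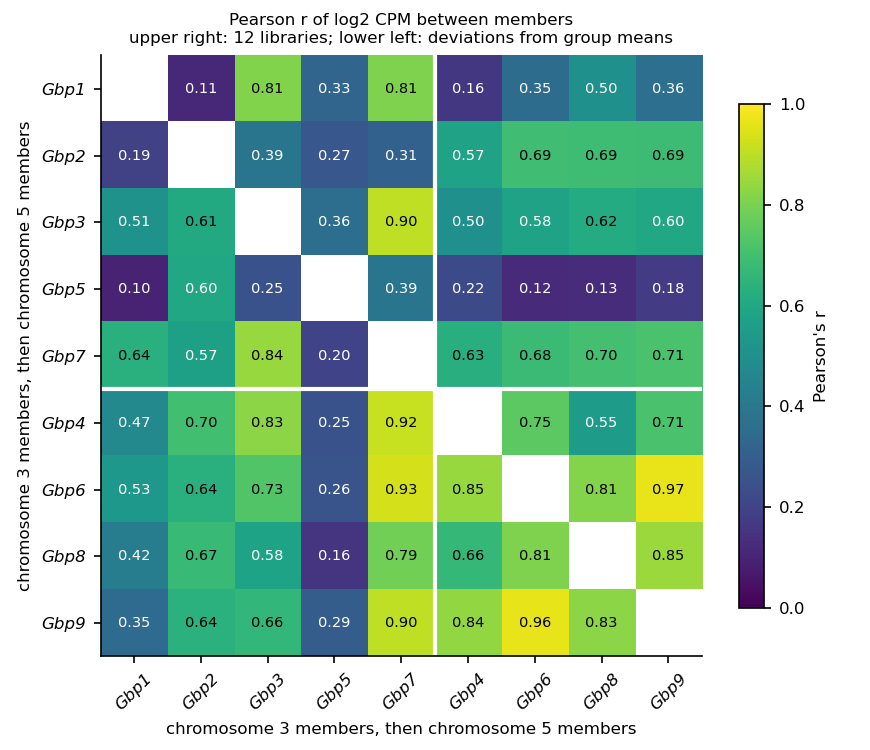
Pearson's r of log2 CPM between the 9 members, over 12 libraries (upper right) and for deviations from the group means (lower left), ordered by cluster. Over 12 libraries pairs within chromosome 5 (0.55 to 0.97) reach higher r than most pairs within chromosome 3 (0.11 to 0.90).

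Among the 9186 tested genes with a mean of at least 5 CPM, the pattern of Gbp1 over the 12 libraries was most like those of Matr3 (r = 0.96), Nedd1 (0.95), Nr1d2 (0.94), Nek7 (0.94) and Tax1bp1 (0.94). Gbp3 and Gbp7 ranked 191 and 206 in this order, and Gbp2 ranked 4248. By deviations from the group means the most alike were Pnpla7 (0.97), Arl5a (0.94), Adam12 (0.93), Ikbkb (0.92) and Antxr2 (0.91). For Gbp7, the member with the highest mean CPM (689.8), they were Cnot7 (0.93), Snx13 (0.93), Nr3c1 (0.92), Vps54 (0.92) and Rab10 (0.91), with Gbp3 at rank 8. By deviations they were Gp49a (0.96), Dgat1 (0.94), Camk1d (0.94), Rab10 (0.94) and Sik2 (0.94), and Gbp6, Gbp4 and Gbp9 ranked 6, 14 and 23. The values over 12 libraries hold the KO difference, which the deviations leave out.

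The genes that induce, resemble or work with GBPs were tested for KO minus WT in 9 lists holding 89 tested genes, of which 1 passed with edgeR, against 1.5% of all genes. Serpina3g, a serine protease inhibitor induced by interferon-gamma, was at 339, 438 and 432 CPM in KO female 1 to 3 and 240.1, 357 and 404 CPM in KO male 1 to 3, against 523, 486 and 553 CPM in WT female 1 to 3 and 586, 575 and 561 CPM in WT male 1 to 3. All KO libraries lay below all WT libraries, as in 1.43% of all genes tested. Other genes of the lists also had KO and WT libraries that did not overlap. Serpina3g fell by 0.57 on the log2 scale (SE 0.13, adjusted p = 0.0388, edgeR). The call was absent without the 4 libraries, under the replicate block, with the 2 WT male libraries of the same number summed, and without any 1 of the 6 WT libraries, KO female 1 or KO female 3. The other 18 genes tested of the interferon-gamma response list did not pass, and the list's median was 0.13.

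The inducing pathway did not pass in any gene. Of 14 genes of interferon-gamma signalling 0 passed (median log2 fold change -0.14). The kinase gene Jak1 averaged 1362 ± 278 CPM in KO libraries and 1707 ± 305 CPM in WT libraries (log2 fold change -0.33, SE 0.15, adjusted p = 0.277, edgeR). Of 9 genes of type I interferon signalling 0 passed, and 8 were higher (median 0.23). The phosphatase gene Ptpn6 had 0.37 (SE 0.17, adjusted p = 0.294, edgeR) and Irf9 0.01 (SE 0.10, adjusted p = 0.971). For Irf9 this average joined 0.36 (SE 0.14) in females and -0.34 (SE 0.14) in males. Of the 16 immunity-related and other interferon-inducible GTPases 0 passed, with 7 higher and 9 lower (median -0.07). Igtp, a GTPase of parasite vacuoles, averaged 857 ± 262 CPM in KO libraries and 684 ± 53.0 CPM in WT libraries (0.33, SE 0.17, adjusted p = 0.378), and Ifi47 averaged 549 ± 147 CPM in KO libraries and 546 ± 64.8 CPM in WT libraries (0.00, SE 0.13, adjusted p = 0.997). For Ifi47 the average joined 0.34 (SE 0.19) in females and -0.34 (SE 0.19) in males. The interaction did not pass for Irf9 or Ifi47 (adjusted p = 0.900 for each, edgeR).

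No gene listed for acting with or after GBPs passed either. Of 10 inflammasome and pyroptosis genes 0 passed (median 0.01), with Casp8 at -0.15 (adjusted p = 0.754) and Gsdmd, the pore-forming protein of pyroptosis, at 0.16 (adjusted p = 0.452). Of 10 genes of ATG8 conjugation, the autophagy machinery that guides GBPs to vacuoles, 0 passed (median -0.15), with Map1lc3b at -0.25 (adjusted p = 0.282) and Atg16l1 at 0.12 (adjusted p = 0.626). Of 6 CaaX prenylation genes, which attach the lipid that anchors some GBPs in membranes, 0 passed (median 0.03), with Fnta at 0.05 (adjusted p = 0.882) and Zmpste24 at -0.20 (adjusted p = 0.429). Of 3 atlastins, related GTPases that fuse endoplasmic reticulum, 0 passed (median -0.20), with Atl2 at -0.24 (adjusted p = 0.431) and Atl3 at -0.20 (adjusted p = 0.598). Across all 89 genes 19 had an unadjusted p below 0.05, 11 higher and 8 lower, and over all genes 15.9% did. No gene of these lists passed for female minus male or for the interaction with edgeR. For female minus male 4 of the 89 had an unadjusted p below 0.05, beside 7.06% of all genes. For the interaction 13 did, 11 higher and 2 lower, beside 4.81% of all genes. The lists were not tested as sets.

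Genes around the family were tested as well. Gbp10 averaged 150 CPM in KO libraries and 135 CPM in WT libraries (0.15, SE 0.23, adjusted p = 0.794, edgeR), with the uncertainty shared with Gbp6. Gbp11 averaged 18.9 ± 8.84 CPM in KO libraries and 9.87 ± 2.68 CPM in WT libraries (0.92, SE 0.30, adjusted p = 0.148). Beside the chromosome 3 cluster, Pdlim5 averaged 63.3 ± 7.65 CPM in KO libraries and 73.8 ± 9.78 CPM in WT libraries (-0.22, SE 0.12, adjusted p = 0.405). On its other side Ccbl2, named Kyat3 in RefSeq, averaged 9.68 ± 2.44 CPM in KO libraries and 9.17 ± 1.37 CPM in WT libraries (0.08, SE 0.22, adjusted p = 0.895). Beside the chromosome 5 cluster, Abcg3 had 0.01 (SE 0.15, adjusted p = 0.977) and Lrrc8b 0.11 (SE 0.21, adjusted p = 0.851). None of these neighbours passed.

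Markers of other cells that a lymph node sort can hold moved with the titled genotype. Of 10 B-cell markers 7 passed for KO minus WT with edgeR, and their summed level was 179 to 398 CPM in KO libraries and 40.0 to 229 CPM in WT libraries. Of 6 tested neutrophil markers 4 passed, with sums of 1.84 to 52.2 CPM in KO libraries and 0 to 1.01 CPM in WT libraries, and Camp, Mpo and Elane were at 0 in at least 6 libraries. Of 10 tested dendritic-cell markers 2 passed, with sums of 1041 to 2034 CPM in KO libraries and 767 to 1485 CPM in WT libraries. Those 2 were the antigen presentation genes Cd74 (772 ± 292 CPM in KO libraries and 315 ± 174 CPM in WT libraries) and H2-Ab1 (124 ± 53.2 CPM in KO libraries and 43.7 ± 30.3 CPM in WT libraries), which B cells also express. Most of the rest of that sum was Itgae, which Tregs express, at 579.7 ± 140.3 CPM in KO libraries and 660.2 ± 123 CPM in WT libraries. The remaining tested markers of that list did not pass, and their log2 fold changes went from below 0 to well above it. They were 1.55 (SE 0.56) for Flt3, 1.25 (SE 0.74) for Itgax, 0.23 for Siglech and 0.20 for Batf3. Xcr1 had 0.03, Cd209a 0.00 and Zbtb46 -0.51. None passed among macrophage and monocyte markers (177 to 430 CPM in KO libraries and 28.7 to 383 CPM in WT libraries), CD8 and NK-cell markers (158 to 226 CPM in KO libraries and 101 to 177 CPM in WT libraries) or stromal and endothelial markers (127 to 187 CPM in KO libraries and 89.8 to 133 CPM in WT libraries, with Ccl21a and Lyve1 at 0 in at least 6 libraries). The Treg and T-cell markers summed to 4763 to 5759 CPM in KO libraries and 4318 to 5308 CPM in WT libraries, and none of 9 passed. These cells can express GBPs as well, and their part in the members' values was not tested.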

How the data were processed

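RNA was isolated with NucleoSpin XS, and libraries were made with SMART-Seq v4 and Nextera XT, per the labels' protocols; this kit does not mark strand. The authors deposited raw counts per gene symbol and log2 values. The submitters' processing notes name GRCm38, edgeR, Subread, featureCounts 1.5.0-p2 and HISAT2 2.0.5; the sources used here do not give the annotation or the handling of multiply mapped reads. The deposited log2 values were CPM with TMM scaling and a prior count of 0.25, which recomputation from the counts matched to within 4.97e-14.

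Counts were filtered by filterByExpr (13692 of 26609 genes, at least 99.8% of counts kept) and tested with edgeR 4.0.16 (R 4.3.3) quasi-likelihood F-tests on 4 titled group means, all 12 libraries sharing 1 spread (biological coefficient of variation 29.3%). The contrasts were KO minus WT averaged over sexes, female minus male averaged over genotypes, and their interaction. Tests were two-sided, with Benjamini-Hochberg adjustment over all genes tested and a threshold of 0.05. Alternatives used DESeq2 1.42.0, limma 3.58.1, other scaling, no filter, a replicate block and left-out libraries. The steps were tested on simulated data. Correlations used a prior count of 2 and have no p. Motifs were searched in the RefSeq promoter table.

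The members and gene lists were chosen with earlier results of these data known. Named genes are the 9 members, list members that passed or else the 2 most abundant, the 5 genes most like Gbp1 and most like the most abundant member, and the nearest tested neighbours of each cluster. An item that this rule names is not reported here. No column of another sample was present.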

Additional observations from a re-analysis of the deposited data

Results flagged for a closer look

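Gbp8 was at 125 CPM in WT female 2, while the other 5 WT libraries lay between 188 and 216 CPM. On the log2 CPM scale the gap to the nearest library was 0.752 of the range of the WT libraries, above Dixon's critical value for 6 samples. WT female 2 is also 1 of the 4 libraries with opposite sex-linked transcripts. Of 18 gene-by-genotype groups screened this was the only one marked, and chance marks about 1 group in 20. Its cause was not tested.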

How the results depend on the processing

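For KO minus WT, 206 genes passed with edgeR (83 higher and 123 lower). Under the alternatives the count was 627 with no filter, 644 with DESeq2 (340 higher and 304 lower), 9 with the replicate block, 14 without the 4 libraries of opposite sex-linked transcripts and 31 with WT male 2 and WT male 3 summed. Leaving out 1 library gave 12 (without KO female 3) to 543 (without KO male 2). For female minus male 0 passed; the count was 149 with no filter, 5 with DESeq2, 6 without the 4 libraries and 0 to 40 with 1 library left out. For the interaction 0 passed; the count was 106 with no filter, 3 with DESeq2 and 0 to 4 with 1 library left out. The cause was not tested. Across groups, samples with the same title number did not deviate together (18 pairs, r -0.27 to 0.09), and the main fit used no pairing. This check held no pair within a group, such as WT male 2 and WT male 3. It cannot show whether samples share a mouse, a litter or a batch. For KO minus WT, which chose Gbp1, nothing is read from the members' calls. The log2 fold change of Gbp1 was -0.75 to -0.60 over the 19 alternatives, which refit the libraries that chose it. Its adjusted p did not stay past the threshold in all of them. This range is a description, with no test. Over all 9 members the sign turned in 12 of 171 values, 0 of them for Gbp1.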
